A study of Mus musculus with 8 samples.

Results

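The NF-κB module comprised 36 genes of the 55414 in the deposited expression table: the 5 Rel/NF-κB subunits, the IκB proteins, feedback inhibitors, receptors, adaptors, kinases and known target genes. The list was drawn up with earlier results of these data known, its members were matched to the table by gene symbol, and all 36 were found. Their expression was read by RNA-seq from 8 libraries of B16F10, a mouse melanoma cell line, in TPM, a measure of transcript abundance that takes gene length and the total of the library into account. Each of 4 groups had 2 libraries made after 24 h of culture. WT cells and CypD KO cells, in which *Ppif* (the gene of cyclophilin D, a mitochondrial regulator of the permeability transition pore) was targeted by CRISPR/Cas9 with puromycin selection, were kept at 21% O2. The groups at 1% O2 were 2 stable, G418-selected lines, with the pcDNA vector alone (Control) or with pcDNA-CypD (CypD OE). The number of clones behind each line and the origin of replicate libraries (separate cultures or not) are not given in the sources used here, so p-values measure only the spread between these libraries.

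NF-κB is a family of dimeric transcription factors held in the cytoplasm by IκB proteins. Signals from receptors of the TNF, interleukin-1 and Toll-like families activate the IκB kinase complex, IκB is degraded, and the freed dimers enter the nucleus and bind κB sites. Many genes they induce encode inhibitors of the same pathway, among them *Nfkbia* and *Tnfaip3*, and others encode proteins that protect cells from death. In melanoma the pathway is known for its role in survival and inflammatory signaling.

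For 29 of the 36 members, RefSeq gave 45 promoter windows of 300 bases (250 before to 50 after a start site, build GRCm38.p6). The κB consensus of 10 bases, searched on both strands, occurred in 21 of the 45 windows (46.7%) and in 8.46% of all 32851 windows. By gene, it was found in 14 of 29 members (48.3%) and in 9.55% of 27025 genes. Members are in part known NF-κB targets, so this share describes the list. ACGTG, the core letters of the hypoxia response element, occurred on either strand in 8 of 29 members (27.6%) and in 21.8% of all genes, and no ACGTG match shared a base with a κB match in the members' windows. In 3 of the windows κB matches overlapped each other. The 250 bases upstream of the start sites of 2 members that were higher in CypD KO and lower in CypD OE are shown with the κB match in capitals, 5′ to 3′ on the strand of the gene. They were chosen for their match: the windows of *Cflar* and *Ier5*, which changed in the same directions, held none, and *Relb* had no window. The *Ier3* promoter lies at chr17:35821463-35821712 on the plus strand and the *Tnip1* promoter at chr11:54962941-54963190 on the minus strand, where 3 matches overlap in a single run.
Ier3: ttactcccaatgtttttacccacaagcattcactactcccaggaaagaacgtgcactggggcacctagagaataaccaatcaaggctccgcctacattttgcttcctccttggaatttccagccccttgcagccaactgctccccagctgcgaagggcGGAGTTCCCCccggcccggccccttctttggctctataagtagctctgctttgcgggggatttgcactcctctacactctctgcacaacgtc
Tnip1: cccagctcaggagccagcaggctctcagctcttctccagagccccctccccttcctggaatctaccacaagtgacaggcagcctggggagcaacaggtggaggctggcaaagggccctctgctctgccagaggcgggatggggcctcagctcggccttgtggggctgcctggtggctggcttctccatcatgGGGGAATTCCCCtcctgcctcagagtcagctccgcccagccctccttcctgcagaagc
Windows of 30 bases around a κB match are shown for 4 further members that were higher in CypD KO, to let these matches be compared. *Sphk1* had another match, at a different start site (chr11:116531941-116531960), which is not shown, and its remaining windows held none. That of *Cyld* is at chr8:88696863-88696892 (plus strand), that of *Sphk1* at chr11:116530999-116531028 (plus strand), that of *Tnfaip2* at chr12:111442627-111442656 (plus strand) and that of *Nfkbia* at chr12:55492657-55492686 (minus strand).
Cyld: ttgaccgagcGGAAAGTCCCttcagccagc
Sphk1: gcgccagactGGAACCCCCCtcccactggg
Tnfaip2: gactattttaGGAGGGCCCCtccagggtcg
Nfkbia: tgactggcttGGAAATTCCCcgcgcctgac
Of the members with a window, a κB match was found in 6 of 12 that were higher in CypD KO and in 6 of 11 that were tested and not higher. A match describes the letters of these windows only, and binding was not measured.

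The libraries were checked first. *Ppif* was 50.68 and 49.99 TPM in WT, 10.4 and 12.1 in CypD KO, 44.6 and 42.2 in Control and 50.3 and 49.3 in CypD OE, so it was lower in CypD KO (limma adjusted p = 3.81e-06) but not past the threshold in the libraries labelled CypD OE (log2 fold change 0.19 ± 0.07 (SE), adjusted p = 0.0794). The median difference between the 2 libraries of a group was 0.0931 to 0.0993 on the log2 scale. All 8 melanocyte markers were detected, with a summed level of 12800 to 21400 TPM, whereas the 7 endothelial markers summed to 0.41 to 4.21 TPM. The 11 leukocyte markers summed to 25.5 and 26.6 TPM in CypD KO, 5.98 and 4.69 in WT, 5.62 and 6.06 in Control and 2.27 and 3.58 in CypD OE. Most of that sum was *Cd68* (21.9 and 23.3 TPM in CypD KO), while *Adgre1*, *Cd14*, *Tyrobp* and *Cd3e* were at 0 in all libraries. *Ptprc* reached at most 0.02 TPM, and 8 of the 11 markers stayed below 1 TPM in all libraries. *Lyz2* was 1.85 and 1.8 TPM in CypD KO and 0.64 and 0.17 in WT. The 8 fibroblast markers summed to 37.3 and 34.2 TPM in CypD KO and to 9.23 to 21.1 TPM in the other libraries, with *Dcn* and *Thy1* at 0 throughout. The higher sum was that of *Postn* (34.8 and 31.2 TPM in CypD KO, 8.04 and 8.07 in WT), while *Col1a2* was 1.09 and 2.17 TPM in CypD KO and 9.03 and 6.87 in WT. In bulk RNA, fewer cells of a type and less RNA per cell cannot be told apart.

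Of the 36 members, 29 reached 1 TPM in at least 2 libraries and were tested, among 13526 genes in all, as log2(TPM + 1), on which low genes show smaller fold changes than in TPM. The remaining 7 never exceeded 1.99 TPM. These were *Nfkbid* and *Ptgs2*, both listed at 0 in every library, *Traf1*, *Icam1*, *Vcam1*, *Tnfrsf1b* and *Bcl3*. The adhesion molecules *Icam1* and *Vcam1* and the prostaglandin synthase *Ptgs2*, which are common markers of NF-κB activity in other cells, were therefore too low to test. *Vcam1* was 0.32 and 0.14 TPM in CypD KO and at most 0.03 elsewhere, and *Tnfrsf1b* was 0.26 and 0.48 against at most 0.07. *Icam1* was at 0 in CypD KO and at most 0.04 elsewhere. *Bcl3*, an atypical IκB protein, was 1.99 and 0.7 TPM in CypD KO and between 0.05 and 0.34 TPM elsewhere. In WT cells, the highest members were *Tank* (57.0 ± 0.566 TPM, SD, n = 2), *Rela* (48.1 ± 0.629), *Cflar* (46.6 ± 1.39), *Nfkb1* (43.9 ± 0.403) and *Tnfrsf1a* (42.5 ± 3.19). *Rela* and *Cflar* differed by about the SD of *Cflar*, and *Nfkb1* and *Tnfrsf1a* by less than that of *Tnfrsf1a*. The lowest of the tested members was *Tnfaip3*, encoding A20, a ubiquitin-editing inhibitor of the pathway, at 0.54 ± 0.198 TPM.

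At 21% O2, more of the tested members were higher than lower in CypD KO cells relative to WT. CypD KO cells were also transfected and selected with puromycin, and no such step is given for WT. Loss of CypD and the making of the line therefore cannot be told apart. In CypD KO, 15 of 29 members rose and 2 fell relative to WT (51.7% and 6.9%), where 30.1% of all 13526 genes rose and 18.4% fell. The median log2 fold change of the 29 members was 0.52, against 0.0891 over all genes. With TPM rescaled by median-of-ratios factors, which brought the median of all genes to 0.00319 and their calls to 3290 higher and 3364 lower, 14 members rose and 3 fell. An increase of at least 1 on the log2 scale was seen in 6 members, *Sphk1*, *Tnfaip2*, *Irak2*, *Cyld*, *Cflar* and *Ier3*, and in 7.47% of all genes.

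**Figure D1:**
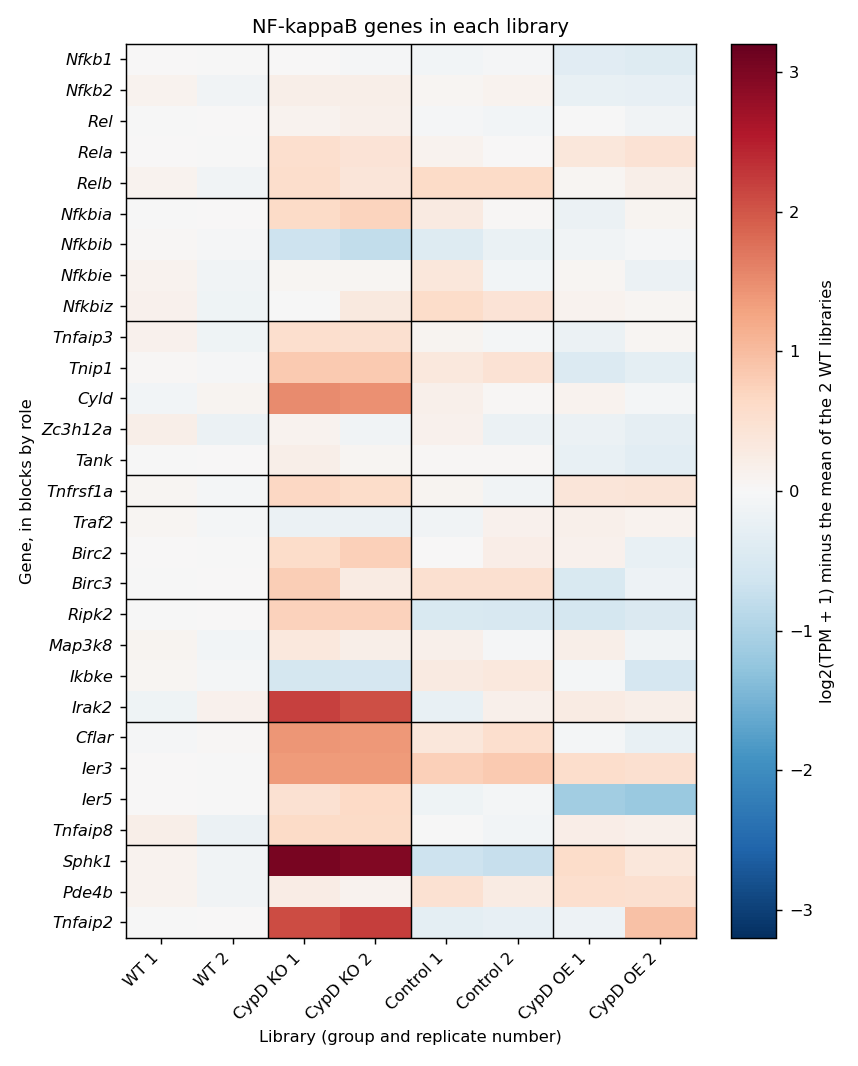
Level of the 29 tested NF-κB members in each of the 8 libraries (columns), as log2(TPM + 1) minus the mean of the 2 WT libraries (color), with genes in blocks by role. *Sphk1*, *Tnfaip2*, *Irak2*, *Cyld*, *Cflar* and *Ier3* stand out in both CypD KO libraries, *Ier5* is lowest in both CypD OE libraries, and *Nfkbib* is lowest in both CypD KO libraries.

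*Sphk1*, sphingosine kinase 1 (GRCm39 chr11:116421751-116427501), makes the lipid messenger sphingosine-1-phosphate. Its level was 5.37 and 4.36 TPM in WT, 47.2 and 44.2 in CypD KO, 2.7 and 2.48 in Control and 7.71 and 6.57 in CypD OE. Both CypD KO libraries lay far above all others. The mean was 9.39 times that of WT, with a log2 fold change of 3.0 ± 0.12 (SE, limma adjusted p = 6.23e-06). The antisense gene *Sphkos* overlaps it and reached at most 1.32 TPM.

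*Tnfaip2* (chr12:111408858-111421452), a TNF-induced gene, was 6.58 and 6.69 TPM in WT, 31.2 and 34.5 in CypD KO, 5.12 and 5.4 in Control and 5.88 and 13.6 in CypD OE. The 2 CypD OE libraries disagreed with each other, one lying within the range of WT and Control and the other above it. In CypD KO the level was 4.95 times that of WT (log2 fold change 2.15 ± 0.31, limma adjusted p = 0.00135). *Irak2* (chr6:113615386-113672470), a kinase-like adaptor of interleukin-1 and Toll-like receptors, was 15.7 and 19.0 TPM in WT, 82.6 and 75.3 in CypD KO, 14.6 and 19.4 in Control and 20.9 and 19.8 in CypD OE. It rose in CypD KO (log2 fold change 2.13 ± 0.14, limma adjusted p = 4.51e-05).

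*Cyld* (chr8:89423468-89478574) encodes a deubiquitinase that removes the ubiquitin chains needed for IκB kinase activation. It was 13.9 and 15.8 TPM in WT, 43.9 and 42.9 in CypD KO, 16.7 and 15.2 in Control and 16.1 and 14.2 in CypD OE. The WT, Control and CypD OE ranges overlapped, and CypD KO stood 2.92 times above WT (log2 fold change 1.49 ± 0.09, limma adjusted p = 3.25e-05). *Cflar* (chr1:58750321-58798047), the caspase-8 inhibitor c-FLIP, was 45.6 and 47.5 TPM in WT, 126 and 123 in CypD KO, 60.2 and 67.7 in Control and 44.2 and 39.5 in CypD OE. It was 2.68 times higher in CypD KO (log2 fold change 1.40 ± 0.07, limma adjusted p = 1.84e-05). *Ier3* (chr17:36132568-36133815), a small stress-response protein that modulates cell survival, was 26.8 and 26.2 TPM in WT, 69.5 and 70.0 in CypD KO, 45.5 and 48.4 in Control and 39.3 and 38.1 in CypD OE. No 2 groups overlapped for *Ier3*, and CypD KO was 2.63 times WT (log2 fold change 1.36 ± 0.05, limma adjusted p = 4.02e-06).

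**Figure D2:**
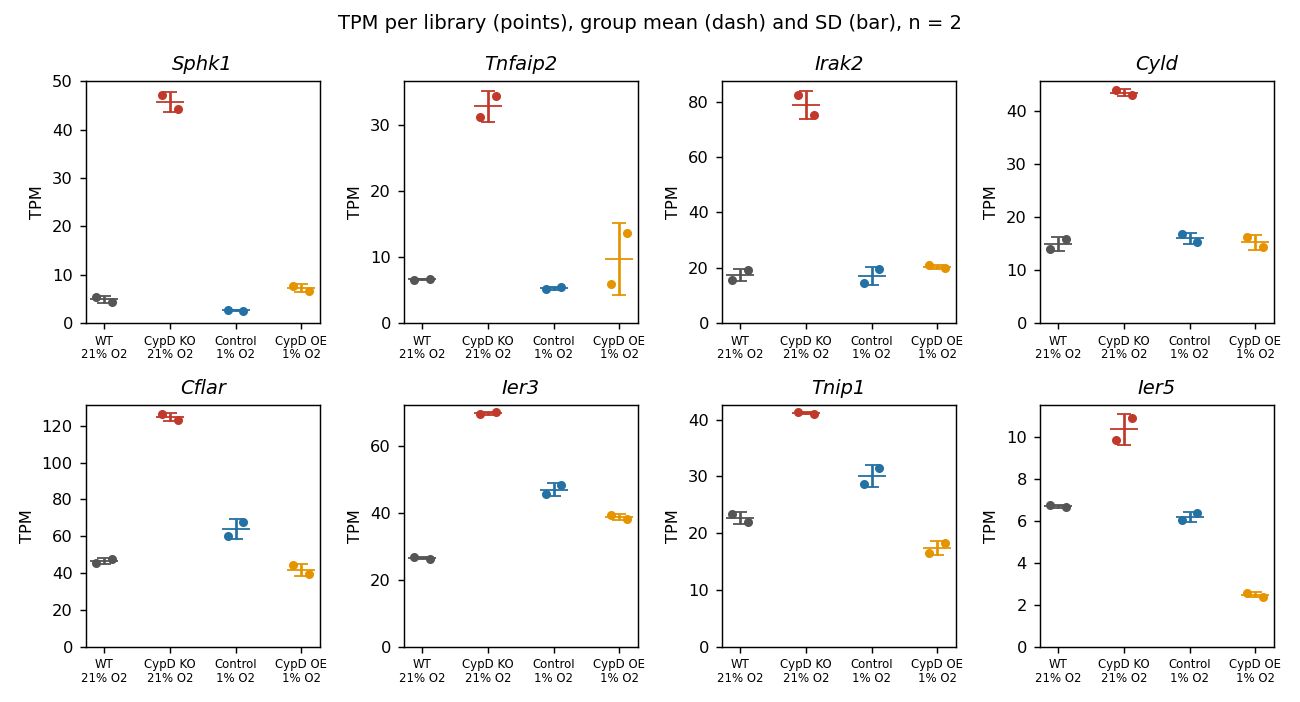
TPM of 8 members in each library (points), with the mean (dash) and SD (bar) of the 2 libraries of each group. CypD KO lies above WT in all 8 genes, for example at 47.2 and 44.2 against 5.37 and 4.36 TPM for *Sphk1*, and CypD OE lies below Control for *Cflar*, *Ier3*, *Tnip1* and *Ier5*.

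Among the 5 subunits, 2 rose in CypD KO (40%, against 30.1% of all genes). *Rela*, the p65 transactivating subunit, was 48.5 and 47.6 TPM in WT and 69.9 and 65.8 in CypD KO (log2 fold change 0.49 ± 0.06, limma adjusted p = 0.000649). *Relb*, a subunit of the non-canonical pathway, was low, at 2.64 and 2.1 TPM in WT and 3.95 and 3.39 in CypD KO (log2 fold change 0.47 ± 0.14, adjusted p = 0.0288). That call was lost under 5 of the alternative settings, leaving out WT replicate 2 or CypD KO replicate 1 among them. *Nfkb1*, the precursor of p50, was 44.2 and 43.6 TPM in WT and 44.4 and 42.9 in CypD KO, a difference within the spread (log2 fold change -0.01 ± 0.05). *Nfkb2*, the precursor of p52, was 17.9 and 15.2 TPM in WT against 18.9 and 19.0 (adjusted p = 0.117), and *Rel* was 4.07 and 4.09 against 4.52 and 4.65 (adjusted p = 0.327). Subunits together summed to 117 and 113 TPM in WT, 142 and 136 in CypD KO, 119 and 117 in Control and 117 and 120 in CypD OE.

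The IκB proteins moved in different directions in CypD KO. *Nfkbia*, which encodes IκBα, the fast-responding inhibitor, was 8.8 and 9.14 TPM in WT, 14.2 and 15.4 in CypD KO, 11.1 and 9.22 in Control and 7.8 and 9.56 in CypD OE, and rose in CypD KO (log2 fold change 0.66 ± 0.12, limma adjusted p = 0.00464). *Nfkbib*, which encodes IκBβ, fell from 40.1 and 38.1 to 24.2 and 22.2 TPM (log2 fold change -0.73 ± 0.08, adjusted p = 0.000496). *Nfkbib* overlaps *Sirt2* on the opposite strand, which had a mean of 55.0 TPM in WT and 52.8 in CypD KO, and since the strand setting of the counting is not given in the sources used here, reads of the pair may not be separated. *Nfkbie* (IκBε) was 4.2 and 3.43 TPM in WT and 4.04 and 3.98 in CypD KO, and *Nfkbiz* (the nuclear IκBζ) was 2.82 and 2.15 against 2.44 and 3.34, without a difference past the test in either. The other member that fell was *Ikbke*, an IκB kinase-related kinase, from 7.37 and 6.69 to 4.46 and 4.52 TPM (log2 fold change -0.55 ± 0.16, adjusted p = 0.0292). The *Ikbke* call was lost when any library of WT or CypD KO was left out, which reduced the count of members that fell from 2 to 1.

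Of the feedback inhibitors, *Tnip1*, a partner of A20, rose together with *Cyld*. *Tnip1* (chr11:54796320-54854661) was 23.4 and 21.9 TPM in WT, 41.3 and 41.0 in CypD KO, 28.7 and 31.4 in Control and 16.4 and 18.2 in CypD OE (log2 fold change in CypD KO 0.83 ± 0.07, limma adjusted p = 0.000161). *Tnfaip3* was 0.68 and 0.4 TPM in WT and 1.21 and 1.19 in CypD KO, and at this low level the difference was not past the test (adjusted p = 0.0604). *Zc3h12a*, an RNase that degrades inflammatory mRNAs, and *Tank*, an adaptor that restrains the pathway, were not past the test either. The remaining members that rose in CypD KO were the TNF receptor *Tnfrsf1a*, the ubiquitin ligase *Birc2*, the kinase *Ripk2* and the survival and stress genes *Tnfaip8* and *Ier5*, with log2 fold changes from 0.56 to 0.73. All 4 members of the survival and stress group rose (100%, against 30.1% of all genes). *Traf2*, *Birc3*, *Map3k8* and *Pde4b* were not past the test, with log2 fold changes of -0.20, 0.53, 0.26 and 0.17. *Cd68* and the leukocyte marker sum moved in the same direction as the members that rose in CypD KO, and the summed level of the melanocyte markers was lower (13000 and 12800 TPM against 16000 and 15900 in WT). Of the 8 melanocyte markers 5 fell and 2 rose, among the latter *Tyr*, the tyrosinase gene, from 37.4 and 41.2 to 167 and 147 TPM. Their part in these differences was not tested.

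**Figure D3:**
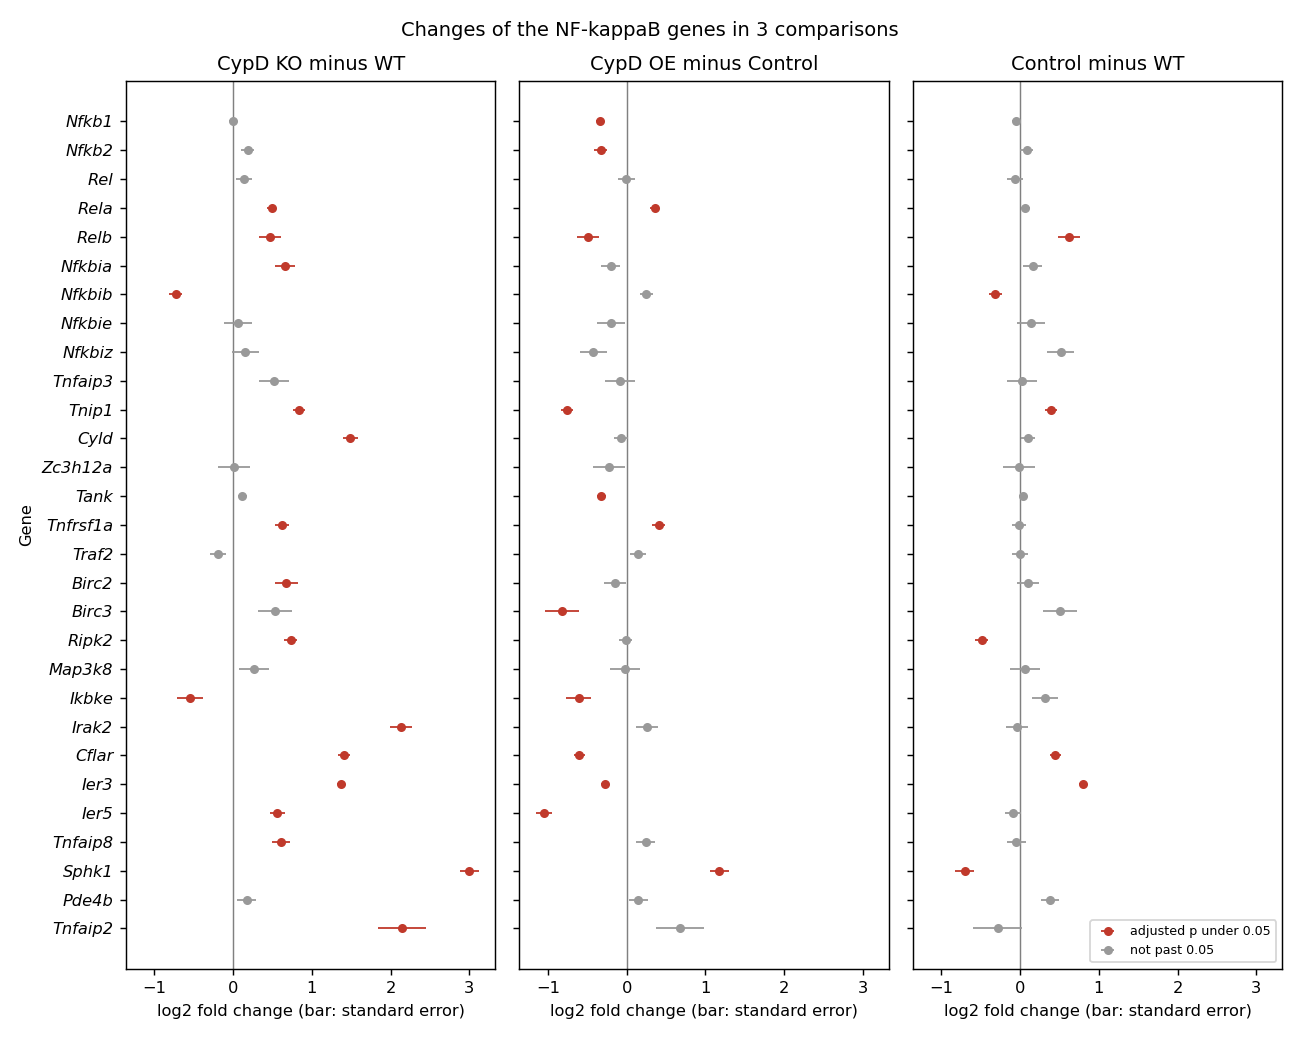
Log2 fold change of the 29 tested members on the log2(TPM + 1) scale (points) with its standard error (bars) in each of 3 comparisons, red where the limma adjusted p was under 0.05. In CypD KO minus WT 15 points are red to the right of 0 and 2 to the left, in CypD OE minus Control 3 and 10, and in Control minus WT 4 and 3.

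Among the members past the test in the libraries labelled CypD OE, at 1% O2, most were lower than in Control. *Ppif* was 1.15 times its Control level in these libraries and not past the test, so at the RNA level they are not shown to overexpress CypD, and whether the table would count a transcript made from the vector is not given in the sources used here. The paper reports that western blots showed CypD overexpression in the resistant clones it selected, and protein was not measured here. Directions in this comparison are those of the labels. Relative to Control, 3 of 29 members rose and 10 fell (10.3% and 34.5%), where 19% of all genes rose and 18.3% fell, and the members' median log2 fold change was -0.151 against 0.00214 over all genes. The count of 10 was 6 without either Control library, and the count of 3 became 5 when Control replicate 2 was left out and 2 when CypD OE replicate 2 was. *Ier5*, an immediate early gene (chr1:154972107-154975382), fell most on the log2(TPM + 1) scale, from 6.04 and 6.38 TPM to 2.57 and 2.39 (log2 fold change -1.05 ± 0.10, limma adjusted p = 0.00035). Its level in WT was 6.74 and 6.66 TPM and in CypD KO 9.86 and 10.9. *Tnip1* and *Cflar* fell by 0.76 and 0.60 on the log2 scale (SE 0.07 for both), and the adjusted p was 0.000399 for *Tnip1* and 0.00114 for *Cflar*. *Ier3* fell by 0.27 ± 0.05 on the same scale, so that both CypD OE libraries, at 39.3 and 38.1 TPM, stayed between WT and Control.

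Of the subunits, *Nfkb1* fell from 41.6 and 42.8 TPM in Control to 33.7 and 32.5 in CypD OE (log2 fold change -0.34 ± 0.05, limma adjusted p = 0.00184). *Nfkb2* fell from 17.1 and 17.9 to 14.0 and 13.5 TPM (-0.33 ± 0.09, adjusted p = 0.0225), a call that was lost whenever a Control or CypD OE library was left out. It overlaps *Psd* on the opposite strand, which reached at most 5.73 TPM. *Relb* fell from 4.15 in both Control libraries to 2.5 and 2.85 TPM (adjusted p = 0.032), and that call was lost on the same terms. *Rel* was 3.92 and 3.8 TPM in Control and 4.03 and 3.66 in CypD OE. *Rela* went the other way, from 52.4 and 48.5 to 62.4 and 67.0 TPM (0.35 ± 0.06, adjusted p = 0.0041).

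None of the 4 tested IκB genes passed the test in CypD OE, where 19% of all genes rose and 18.3% fell. With so few genes, this count describes these genes only. The limma adjusted p-values were 0.0561 for *Nfkbib*, 0.0931 for *Nfkbiz*, 0.247 for *Nfkbia* and 0.443 for *Nfkbie*. *Nfkbib* was 29.0 and 33.6 TPM in Control and 36.2 and 38.3 in CypD OE. *Nfkbiz* was 4.24 and 3.68 against 2.78 and 2.6 TPM, and *Nfkbie* was 5.12 and 3.55 against 4.04 and 3.21. The other members that fell were *Tank*, *Birc3*, a ubiquitin ligase induced by NF-κB, and *Ikbke*. *Birc3* was 1.9 and 1.91 TPM in Control and 0.47 and 0.84 in CypD OE, a decrease in mean TPM of 2.91-fold against 2.5-fold for *Ier5*, and both its call and that of *Ikbke* were lost without either Control library. The members that rose besides *Rela* were *Sphk1*, 2.76 times higher (log2 fold change 1.18 ± 0.12, adjusted p = 0.000495), and *Tnfrsf1a*, at 45.3 and 38.9 TPM in Control and 55.4 and 56.5 in CypD OE (adjusted p = 0.00961, and 0.0526 without CypD OE replicate 2). The melanocyte marker sum was 14000 and 13800 TPM in CypD OE against 20800 and 21400 in Control, and *Cd68* was 1.13 and 1.91 against 4.81 and 4.2 TPM. Of the 8 melanocyte markers 5 fell, 2 were not past the test and 1 rose, *Sox10*, at 269 and 274 against 238 and 236 TPM. The leukocyte marker *Fcer1g* was 1.05 and 1.21 TPM in CypD OE against 0.41 and 0.95 in Control, not past the test. Whether these bear on the changes of the members was not tested.

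The comparisons of CypD KO with WT and of CypD OE with Control share no library. They differ in oxygen and in how the lines were made and selected, as well as in the CypD construct. Their calls fell into several patterns. Shares of all genes in these patterns were not computed, so the patterns only describe the members. *Relb*, *Tnip1*, *Cflar*, *Ier3* and *Ier5* rose in CypD KO and fell in CypD OE. *Rela*, *Tnfrsf1a* and *Sphk1* rose in both, and *Ikbke* fell in both. A further 7 members, *Nfkbia*, *Cyld*, *Birc2*, *Ripk2*, *Irak2*, *Tnfaip8* and *Tnfaip2*, rose in CypD KO without passing the test in CypD OE, and *Nfkb1*, *Nfkb2*, *Tank* and *Birc3* fell in CypD OE without passing it in CypD KO. The difference between the 2 comparisons was not tested for these genes. Some of these patterns rest on calls that were lost under an alternative setting. Those were the calls of *Relb* and *Ikbke* in both comparisons and of *Tnfrsf1a*, *Nfkb2* and *Birc3* in CypD OE. Neither comparison moved *Rel*, *Nfkbie*, *Nfkbiz*, *Tnfaip3*, *Zc3h12a*, *Traf2*, *Map3k8* or *Pde4b* past the threshold.

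**Figure D4:**
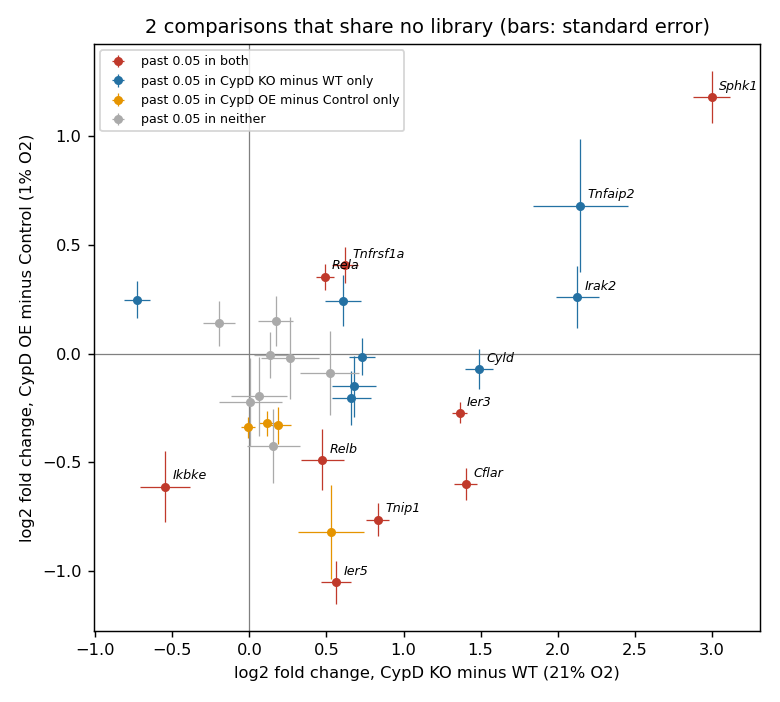
Log2 fold change of each tested member in CypD KO minus WT (horizontal axis) and in CypD OE minus Control (vertical axis) on the log2(TPM + 1) scale, with standard errors as bars and color for the comparison in which the adjusted p was under 0.05. *Sphk1* lies at the upper right at 3.0 and 1.18, and *Relb*, *Tnip1*, *Cflar*, *Ier3* and *Ier5* lie at the lower right.

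Ratios within a library do not depend on the scaling of that library. The *Rela* to *Nfkb1* ratio of TPM was 1.1 and 1.09 in WT, 1.57 and 1.54 in CypD KO, 1.26 and 1.13 in Control and 1.85 and 2.06 in CypD OE. It was thus higher in both CypD KO and CypD OE than in their own controls, through higher *Rela* in CypD KO and through higher *Rela* with lower *Nfkb1* in CypD OE. The *Nfkbia* to *Nfkbib* ratio was 0.22 and 0.24 in WT, 0.585 and 0.693 in CypD KO, 0.382 and 0.275 in Control and 0.216 and 0.249 in CypD OE. The CypD KO libraries stood above all others, and those of CypD OE lay at the level of WT. *Sirt2*, which overlaps *Nfkbib*, had a mean of 54.7 TPM in Control and 62.6 in CypD OE. Whether its reads entered the *Nfkbib* values was not tested. These ratios are given as a description and were not tested.

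**Figure D5:**
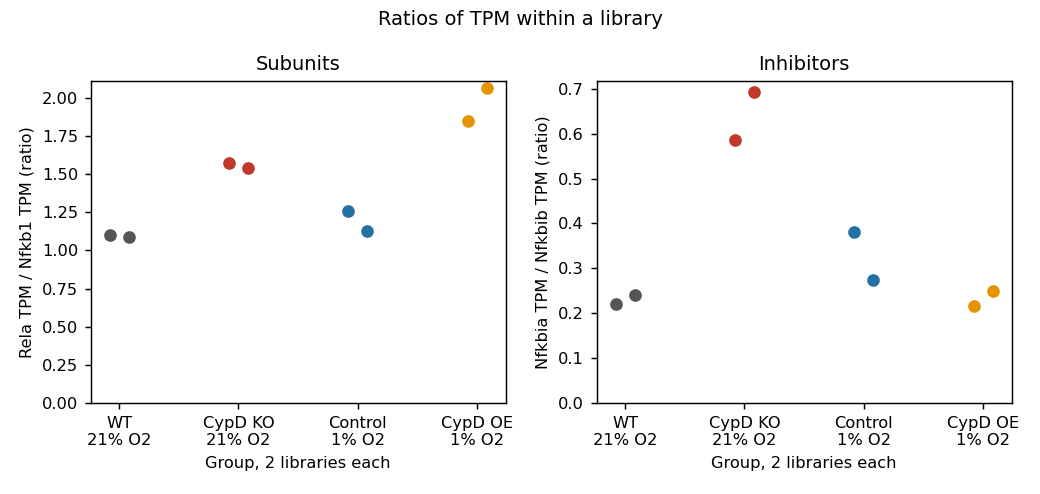
Ratio of *Rela* to *Nfkb1* TPM (left) and of *Nfkbia* to *Nfkbib* TPM (right) within each library (points, 2 per group, both axes from 0). The *Rela* to *Nfkb1* ratio is highest in CypD OE, at 1.85 and 2.06, and the *Nfkbia* to *Nfkbib* ratio is highest in CypD KO, at 0.585 and 0.693.

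Control cells at 1% O2 were also set against WT cells at 21% O2, a comparison in which oxygen and the vector line changed together and cannot be told apart. It uses the WT and Control libraries of the other comparisons. Here 4 of 29 members rose and 3 fell (13.8% and 10.3%), where 12.1% of all genes rose and 12.1% fell, and the median log2 fold change was 0.0591 against 0.0117 over all genes. *Ier3*, *Relb*, *Cflar* and *Tnip1* rose, by 0.80, 0.62, 0.45 and 0.39 on the log2 scale. *Sphk1*, *Ripk2* and *Nfkbib* fell, with log2 fold changes of -0.70, -0.49 and -0.32. The call of *Ier3* had the lowest adjusted p of these (0.000145). Leaving out WT replicate 2 or Control replicate 2 reduced the count that rose from 4 to 2, while the count that fell was 2 without any 1 of 7 libraries and 3 without Control replicate 2. In all, 21 of the 29 tested members passed the test in at least 1 of the 3 comparisons, and 5 did so in all 3 (*Relb*, *Tnip1*, *Cflar*, *Ier3* and *Sphk1*). For *Relb*, *Tnip1* and *Sphk1*, at least 1 of these calls was lost under an alternative setting. Of all 13526 genes, 64.9% passed in at least 1 comparison and 11.7% in all 3, in either direction. These counts combine comparisons that share libraries and are given as a description.

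Another 91 genes of the pathway that are not members were examined in the same fit, of which 61 were tested. In CypD KO 28 rose and 8 fell (45.9% and 13.1%, against 30.1% and 18.4% of all genes). In CypD OE 21 rose and 9 fell relative to Control (34.4% and 14.8%, against 19% and 18.3%). In Control 2 rose and 17 fell relative to WT (3.28% and 27.9%, against 12.1% and 12.1%). Of 11 ligands only 2 were high enough to test, and *Il18*, which signals through an interleukin-1 family receptor, was 1.5 and 1.55 TPM in WT and 6.21 and 7.85 in CypD KO. *Il18* also rose in CypD OE, to 2.82 and 2.62 TPM from 1.17 and 1.61 in Control (limma adjusted p = 0.0189). Receptors and adaptors rose in 8 of 15 tested cases in CypD KO and fell in 1 (53.3% and 6.67%, against 30.1% and 18.4% of all genes). In CypD OE 7 of the 15 rose relative to Control and 0 fell (46.7% and 0%, against 19% and 18.3%). *Tnfrsf12a*, the receptor of TWEAK, reached 263 and 273 TPM in CypD KO from 46.5 and 48.8 in WT (log2 fold change 2.47 ± 0.06, limma adjusted p = 1.16e-06). It was also higher in CypD OE, at 50.5 and 54.6 TPM against 39.4 and 42.1 in Control (limma adjusted p = 0.00333). Kinases and ubiquitin enzymes rose in 5 of 24 and fell in 4 of 24 in CypD KO (20.8% and 16.7%), shares below those of all genes (30.1% and 18.4%). The counts were equal in CypD OE, where the shares were near those of all genes (19% and 18.3%).

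Of 30 further targets 20 were tested. In CypD KO 14 rose and 3 fell (70% and 15%, against 30.1% and 18.4% of all genes). In CypD OE 8 rose and 5 fell relative to Control (40% and 25%, against 19% and 18.3%), and in Control 2 rose and 6 fell relative to WT (10% and 30%, against 12.1% and 12.1%). Some of those with the largest changes are described here. *Lif*, a cytokine of the interleukin-6 family, was 0.47 and 0.4 TPM in WT, 9.62 and 9.18 in CypD KO, 0.25 and 0.28 in Control and 2.46 and 2.16 in CypD OE, and like *Sphk1* rose in both comparisons. *Plau*, the urokinase-type plasminogen activator, was 0.22 and 0.18 TPM in WT, 3.68 and 2.6 in CypD KO, 1.34 and 1.18 in Control and 0.54 and 0.33 in CypD OE, so that it rose in the first comparison and fell in the second (adjusted p = 0.0336). *Ccl5*, a chemokine, was 1.09 and 0.29 TPM in WT and 4.8 and 5.67 in CypD KO. It was 0.88 and 1.91 TPM in Control, a low level, and was listed at 0 in both CypD OE libraries (log2 fold change -1.23 ± 0.30, limma adjusted p = 0.0174). *Tapbp*, which loads peptides onto MHC class I, and *Sdc4*, a heparan sulfate proteoglycan, rose in CypD KO by 1.91 and 1.63 on the log2 scale, and neither passed the test in CypD OE.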

How the data were processed

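RNA from 8 libraries of B16F10 cells was measured, 2 in each of 4 groups taken from the sample labels. Per the study's methods and labels, the authors depleted ribosomal RNA, sequenced paired-end reads of 150 bases, trimmed them with Cutadapt 3.4, mapped them with STAR 2.7.8a (GRCm39) and ran RSEM 1.3.1 for gene-level estimates. What the authors deposited is TPM, whose total is the same for each library. The authors tested read counts with DESeq2 1.26.0, and counts were not used here. The strand setting and the number of clones were not given in the sources used here. TPM keeps no depth, so the worth of 1 fragment was estimated from steps between low values (0.0815 to 0.098 TPM for 1 kb of effective length), of which 83.2% to 86.3% lay within 0.15 of a whole number (30% for evenly spread values). Because TPM is relative to all other transcripts, a rise of abundant genes lowers the rest.

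The 13526 genes that reached 1 TPM in 2 or more libraries entered a fit of log2(TPM + 1) by limma 3.58.1 under R 4.3.3 (4 group means, eBayes with trend, two-sided, Benjamini-Hochberg adjustment over all genes tested, threshold 0.05). Members and gene lists were chosen with earlier results of these data known. Values in every library are given for members past the test with a log2 change of at least 1, for the subunits and for the IκB genes, others as ranges or where a result turns on them. The further pathway genes named are from the 8 with the largest change past the test in CypD KO or CypD OE, of which 1 is not reported here. Script steps were tested on simulated data. Gene positions are those of GENCODE M39 (GRCm39), which held 54749 of 55414 identifiers, and promoter sequences those of RefSeq (GRCm38.p6). The alternatives were a pseudocount of 0.1, a replicate block, no filter or one of 5 TPM, rescaling by median-of-ratios factors, fits of 4 libraries, eBayes without trend and leaving out each library. When 1 library was left out, the lone library of its group was assumed to vary like the other groups.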

Additional observations from a re-analysis of the deposited data

How the results depend on the processing

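Of 37 changes of members past the test, 26 kept direction and threshold under every alternative that gave a value, 11 lost the threshold under at least 1, and 0 reversed. Those lost were *Relb* in all 3 comparisons, *Ikbke* in CypD KO and CypD OE, *Birc3*, *Nfkb2* and *Tnfrsf1a* in CypD OE, and *Nfkbib*, *Sphk1* and *Tnip1* in Control against WT. The filter of 5 TPM removed 4 of the 37 from testing. Members that rose in CypD KO numbered 14 to 17 under all settings (14 to 16 with 1 library left out). Members that fell in CypD KO numbered 2, but 1 without a filter, 3 with rescaling, and 1 to 2 with 1 library left out. In CypD OE the count that rose ranged from 2 to 5 and the count that fell from 6 to 10 with 1 library left out. In Control against WT the count that rose ranged from 2 to 4 and the count that fell from 2 to 3 with 1 library left out. In that comparison, 1 member fell in a fit of its 4 libraries alone and 2 without a filter, without trend or with the replicate block. The cause of these changes was not tested. Leaving out libraries or dropping the filter changed what entered the fit. Rescaling, the replicate block and eBayes without trend used the same libraries and genes. Replicate numbers share only a number, since the labels do not tie them to a culture or batch: the deviations of libraries with the same number correlated at 0.108 between CypD KO and WT, -0.00175 between CypD OE and Control and -0.0186 between Control and WT. With the replicate block, 15 members rose and 2 fell in CypD KO, 3 and 10 in CypD OE, and 5 and 2 in Control against WT. Changes of genes with a few fragments, such as *Birc3*, *Map3k8* and *Tnfaip3*, are limited by depth. Whether replicates were separate cultures is not given in the sources used here.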
